A study of Mus musculus with 42 samples.

Results

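The comparison described here is that of embryoid bodies lacking AMPK (AMPK DKO) with wild-type (WT) embryoid bodies on day 12 of culture in low glucose. It rests on 4 of the 42 mouse libraries of the series. The DKO libraries were those headed K1 L12 and K3 L12, from the lines K1 and K3 at 2.5 mM glucose (LG). The WT library was that headed W1 L12, from the line W1 under the same conditions. The fourth library was headed K3 HES, the heading of undifferentiated DKO cells of the line K3 (day 0) at 25 mM glucose (HG). It was set beside W1 because its values went against that heading: it was chosen by measured levels of line markers, Txnip, Prkaa2 and Afp. A library headed W2 L12 was left out because its Prkaa2 level was 0.04 RPKM and its Txnip level 190 RPKM. All 4 libraries came from C57Bl/6-derived embryonic stem cells (ESC) that had been grown on irradiated feeder cells with LIF, freed of feeders, and then aggregated on low-attachment plates without LIF. Whether a line is 1 clone, and which exons are deleted in the DKO lines, was not given in the sources used here.

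AMPK is a kinase that is activated when cellular energy falls, and it restrains biosynthesis while it promotes catabolism. Its catalytic subunit is encoded by Prkaa1 or Prkaa2, and DKO cells lack both. The series title connects AMPK with Tfeb, a transcription factor of the MiT/TFE family that switches on genes of lysosomes. Lysosomes break down material taken up by endocytosis or delivered by autophagy, and are abundant in visceral endoderm, the absorptive and secretory outer layer of an embryoid body. Inside that layer, pluripotent cells give rise to the germ layers, and a basement membrane lies between the layers.

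The values that placed the libraries are given as a description, with no test. Prkaa2 was at 0.056 and 0.617 RPKM (reads scaled to transcript length and library size) in K1 and K3, against 22.3 RPKM in W1 and 18.1 RPKM in the library headed K3 HES. Txnip, a transcript induced by glucose, was at 0.961 and 1.2 RPKM in K1 and K3, 0.538 RPKM in W1 and 2.18 RPKM in the library headed K3 HES. That last value was the highest of the 19 libraries under the threshold of 5 RPKM, and the lowest value above the threshold was 19.95 RPKM. Of the libraries under 1 RPKM of Prkaa2, the highest was at 0.959 RPKM, and the next library above lay at 1.32 RPKM. Afp, the alpha-fetoprotein secreted by visceral endoderm, was at 47.1 and 25.7 RPKM in K1 and K3, 1527 RPKM in W1 and 3043 RPKM in the library headed K3 HES. The imprinted RNA Meg3 was at 101 and 228 RPKM in K1 and K3, 81 RPKM in W1 and 0.078 RPKM in the library headed K3 HES. Meg3 near 0 is the pattern of libraries of the line W2.

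The line markers Meg3 and Ddx3y, with Txnip, matched the heading in 24 libraries and went against it in 18, among them the libraries headed K3 HES and W2 L12. Depths, in units of 1000000 reads, ranged from 10.5 to 25.5 over the series and from 10.5 to 15.3 in the 4 libraries. Across 14989 genes, the library headed K3 HES had its highest Pearson r with W1 at LG day 12 (0.98), followed by W2 at HG day 12 (0.974) and W1 at HG day 12 (0.97). Its r was 0.888 with K1 and 0.859 with K3 at LG day 12. These correlations are across genes of single libraries and are a description. Its values therefore stand beside those of W1, and it enters a separate test only. Since it was chosen by its resemblance to a late WT library, its position relative to the DKO libraries is no independent support.

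A total of 5183 of 14670 genes differed between DKO and W1 by limma at a Benjamini-Hochberg adjusted p under 0.05, called here higher or lower. The 3278 genes that were higher made up 22.3% of those tested, and the 1905 that were lower made up 13%. With the library headed K3 HES added to W1, 28.6% of 14706 genes were higher and 18% lower. Of the genes called higher against W1, 3170 (96.7%) were also higher in that second test, and of those called lower, 1857 (97.5%) were also lower. None of the calls changed direction. The second test shares K1, K3, W1 and all other groups with the first, so this overlap was largely built in. Both DKO libraries lay above both W1 and the library headed K3 HES in 42.6% of the genes tested, and below both in 26.9%. Median-of-ratios scaling gave 2415 higher and 2440 lower genes, so that 49.7% of calls were higher, against 63.2% with RPKM as deposited. The median log2 difference of all genes was 0.158 as deposited and 0.049 under that scaling, and the gene lists below are best read relative to this shift. WT was a single library in this test, and its spread was taken from the other groups. In these bulk samples, fewer cells of a type and less RNA per cell cannot be told apart.

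The DKO lines resembled each other more than either resembled W1. K1 and K3 differed by at least 1 on the log2(RPKM + 1) scale in 7.74% of the genes tested, while K1 differed by that much from W1 in 19% and K3 in 23.5%. The library headed K3 HES differed from W1 by that much in 2.38%. Among genes called lower, 145 were at least 1 unit higher in K1 than in K3 and 9 at least 1 unit lower, so the falls were more often larger in K3. Among genes called higher, 42 were at least 1 unit higher in K1 and 106 lower.

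**Figure D1:**
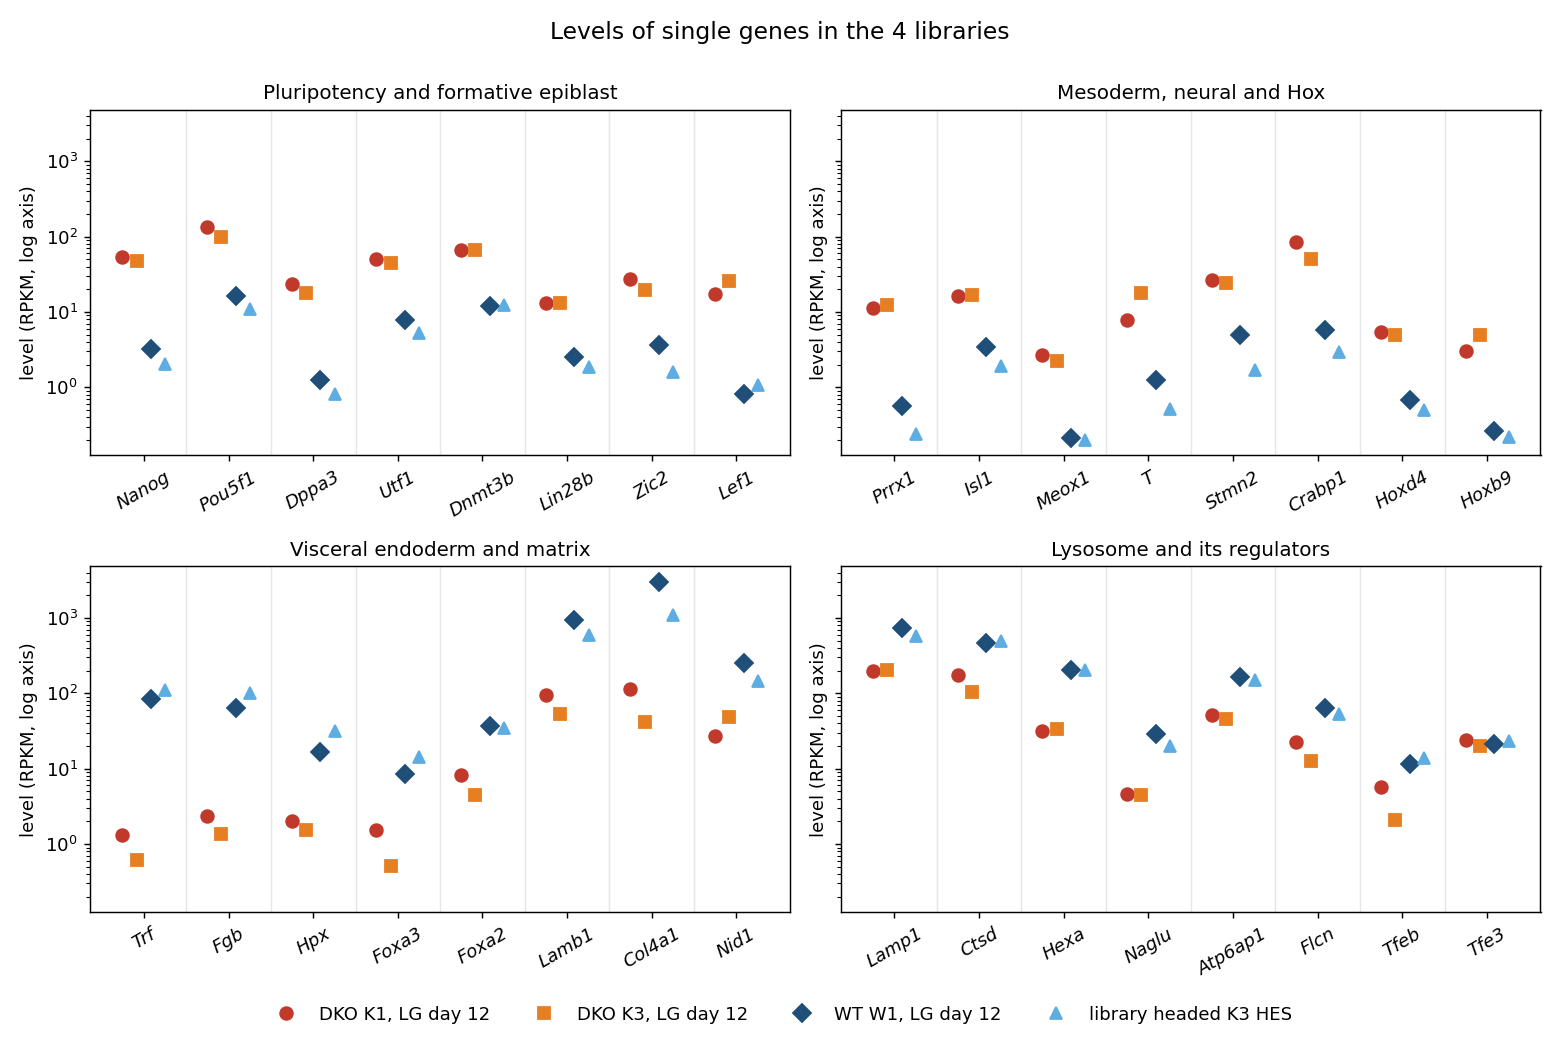
Levels of 32 named genes (RPKM, log axis) in the DKO lines K1 and K3 and the WT line W1 at LG day 12, and in the library headed K3 HES. Each point is 1 library. Tfe3 overlaps between the groups, and in the other genes both DKO points lie on the same side of both other points.

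Of 5 tested AMPK subunit genes other than Prkaa2, 1 was higher and 1 lower, and with the library headed K3 HES 1 was higher and 2 lower. Against W1, 22.3% of all genes were higher and 13% lower. Prkaa1 (chromosome 15, 5143861 to 5181899, mm10) was at 5.72 and 6.63 RPKM in K1 and K3, 10.6 RPKM in W1 and 7.79 RPKM in the library headed K3 HES, and it did not pass (log2 difference -0.70 ± 0.36 SE, adjusted p = 0.145). The table sums reads over whole transcripts, so a deletion of part of a gene can leave reads. Prkab1, a regulatory beta subunit, was at 21.1 and 19.3 RPKM in DKO, against 44.6 RPKM in W1 and 37.6 RPKM in the library headed K3 HES (-1.11 ± 0.22, adjusted p = 0.00316). Prkag2, a regulatory gamma subunit, was at 11.1 and 11.9 RPKM in DKO, against 5.08 RPKM in W1 and 7.6 RPKM in the library headed K3 HES (1.04 ± 0.25, adjusted p = 0.0083).

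Most genes of naive pluripotency were higher in DKO embryoid bodies than in W1. The list summed to 834 and 618 RPKM in K1 and K3, 366 RPKM in W1 and 341 RPKM in the library headed K3 HES. Of 24 tested, 15 were higher and 1 lower, with a median log2 difference of 2.01, beside 0.16 and 22.3% higher for all genes, and with the library headed K3 HES 16 were higher and 2 lower. Pou5f1 (chromosome 17, 35506032 to 35510777), which encodes the core factor Oct4, was at 134 and 98.7 RPKM in K1 and K3, against 16.2 RPKM in W1 and 10.9 RPKM in the library headed K3 HES (2.75 ± 0.35, adjusted p = 0.000242). Nanog (chromosome 6, 122707489 to 122714633), its partner in the pluripotency network, was at 52.8 and 46.8 RPKM in DKO, against 3.22 RPKM in W1 and 2.02 RPKM in the library headed K3 HES (3.59 ± 0.20, adjusted p = 2.34e-06). Both DKO levels of either gene were many times those of both other libraries. Dppa3, a maternal factor that guards DNA methylation, was at 23.4 and 17.6 RPKM in DKO, 1.27 RPKM in W1 and 0.822 RPKM in the library headed K3 HES (3.23 ± 0.35). Utf1, a chromatin factor of ESC, was at 50.5 and 45.2 RPKM in DKO, 7.73 RPKM in W1 and 5.26 RPKM in the library headed K3 HES (2.48 ± 0.33). The member that fell was Klf4, at 13.7 and 5.21 RPKM in DKO, against 83.8 RPKM in W1 and 53.4 RPKM in the library headed K3 HES (-3.15). Klf4 is a reprogramming factor that is also known from differentiated epithelia.

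Genes of the formative epiblast, the state between naive pluripotency and germ layer choice, were higher in 12 of 16 cases and lower in 0, with a median of 1.44. Adding the library headed K3 HES gave 14 higher. Of all genes, 22.3% were higher against W1, and 28.6% with that library. Dnmt3b, the de novo DNA methyltransferase of this state, was at 66 and 65.5 RPKM in K1 and K3, 12 RPKM in W1 and 12.6 RPKM in the library headed K3 HES (2.36 ± 0.28, adjusted p = 0.000172). Lin28b, which blocks maturation of let-7 miRNAs, was at 13.2 and 13.3 RPKM in DKO, against 2.56 RPKM in W1 and 1.84 RPKM in the library headed K3 HES (2.00 ± 0.20). Zic2, a zinc finger factor, was at 27.3 and 19.8 RPKM in DKO, 3.66 RPKM in W1 and 1.6 RPKM in the library headed K3 HES (2.38 ± 0.27). For these genes the DKO lines differed less from each other than from either other library.

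Signalling genes active around gastrulation followed. Lef1, a nuclear effector of Wnt signalling, had the largest rise among the genes named by size, with Nanog close behind. Those genes were called, averaged at least 5 RPKM over K1, K3 and W1, and met the naming rule given below. Lef1 was at 17.4 and 25.4 RPKM in K1 and K3, against 0.829 RPKM in W1 and 1.07 RPKM in the library headed K3 HES (3.59 ± 0.37, adjusted p = 6.76e-05). Of 18 Wnt effectors and targets, 10 were higher and 1 lower, and 13 and 1 with the library headed K3 HES. The shares of all genes were 22.3% higher and 13% lower against W1, and 28.6% and 18% with that library. Tcf7, a related effector, was at 22.3 and 18.4 RPKM in DKO, 5.12 RPKM in W1 and 4.76 RPKM in the library headed K3 HES (1.80 ± 0.16), and the feedback inhibitor Nkd2 was at 3.28 and 3.23 RPKM, 0.148 RPKM and 0.393 RPKM in the same libraries (1.89 ± 0.28). Axin2, a feedback target of the pathway, rose by 1.40 ± 0.46 (adjusted p = 0.0343), a call lost without K1 (adjusted p = 0.118) and under median-of-ratios scaling (adjusted p = 0.0523). The member that fell was Tcf7l2, the effector also used in gut epithelium (-1.75 ± 0.27). Under median-of-ratios scaling 7 Wnt genes were higher and 1 lower.

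Of 12 genes of Nodal signalling, 5 were higher and 0 lower, and 6 were higher with the library headed K3 HES. Some genes stand in several lists, so counts of different lists are not separate. Tdgf1 and Fgf4 are also in the naive list, Lef1 in the formative list and Nodal in the primitive streak list. Nodal itself, the TGF-beta family ligand that patterns the epiblast, was at 11.3 and 14 RPKM in K1 and K3, 1.97 RPKM in W1 and 1.6 RPKM in the library headed K3 HES (2.20 ± 0.46, adjusted p = 0.00359). Its co-receptor gene Tdgf1 was at 41.1 and 70.1 RPKM in DKO, against 5.23 RPKM in W1 and 3.4 RPKM in the library headed K3 HES (3.13 ± 0.64). Foxh1, the nuclear partner of its Smad proteins, rose by 2.04 ± 0.37 and Skil, a Smad repressor, by 1.86 ± 0.29. Of 17 FGF and ERK feedback genes, 7 were higher and 2 lower, and 10 and 2 with the library headed K3 HES. All genes were higher in 22.3% and lower in 13% of cases against W1, or 28.6% and 18% with that library. The share of FGF genes lower against W1 was thus near that of all genes. Fgfr1, the main FGF receptor of mesoderm, was at 39.6 and 41.5 RPKM in DKO, against 11.1 RPKM in W1 and 15.1 RPKM in the library headed K3 HES (1.78 ± 0.21, adjusted p = 0.000178). The ERK phosphatase gene Dusp6 rose by 1.42 ± 0.18 and the ligand Fgf4 by 2.12 ± 0.43. The 2 that fell were the receptors Fgfr3 (-1.39) and Fgfr4 (-1.94). Of 14 BMP genes, 4 were higher and 1 lower, close to the shares of all genes, while under median-of-ratios scaling 1 was higher and 2 lower. The member that fell was the antagonist Nog, at 3.75 and 1.54 RPKM in DKO, against 26.3 RPKM in W1 and 14.5 RPKM in the library headed K3 HES (-2.98 ± 0.46). Smad6, an inhibitor of the pathway, passed against W1 (1.07 ± 0.34, adjusted p = 0.0286) and neither with the library headed K3 HES (0.61, adjusted p = 0.133) nor without K3 (adjusted p = 0.137).

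**Figure D2:**
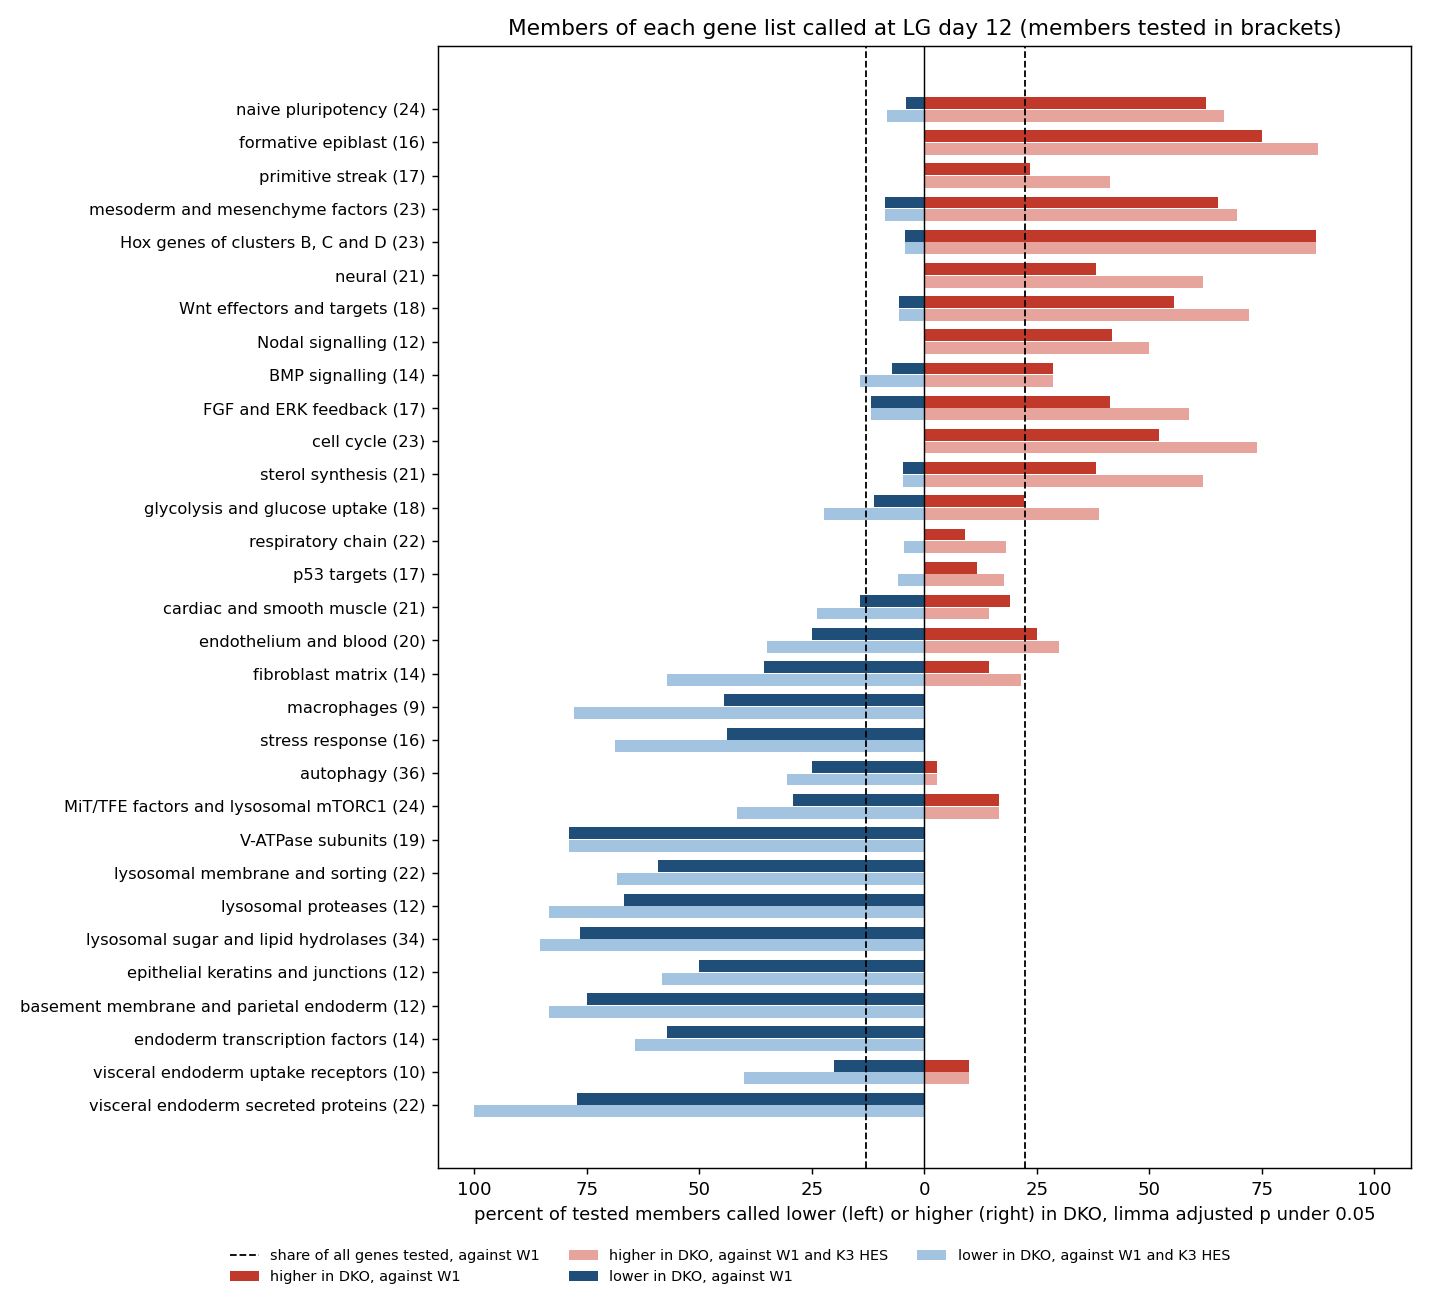
Percent of the tested members of 31 gene lists called lower (bars to the left) or higher (bars to the right) in DKO at LG day 12. Dark bars give the test against W1 and pale bars that with the library headed K3 HES added, and dashed lines mark the 13% and 22.3% of all genes called lower and higher against W1.

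Transcription factors of mesoderm and mesenchyme were higher in 15 of 23 cases and lower in 2, with a median of 1.33, and 16 and 2 with the library headed K3 HES. Prrx1, a factor of limb and skeletal mesenchyme, was at 11.1 and 12.5 RPKM in K1 and K3, against 0.567 RPKM in W1 and 0.243 RPKM in the library headed K3 HES (3.03 ± 0.22, adjusted p = 7.8e-06). Isl1, a factor of second heart field progenitors, was at 16.3 and 16.9 RPKM in DKO, 3.39 RPKM in W1 and 1.94 RPKM in the library headed K3 HES (2.00 ± 0.20). The somite factor Meox1 was at 2.67 and 2.25 RPKM in DKO, 0.215 RPKM in W1 and 0.202 RPKM in the library headed K3 HES (1.51 ± 0.17). The pair that fell consisted of Snai1, a driver of epithelial to mesenchymal transition (-1.83), and Foxf1, a factor of gut mesenchyme (-0.86). Of 17 primitive streak genes, 4 were higher and 0 lower, a share higher near the 22.3% of all genes. With the library headed K3 HES 7 were higher, beside 28.6% of all genes. T, the mesoderm factor brachyury, was at 7.74 and 17.8 RPKM in DKO, against 1.24 RPKM in W1 and 0.51 RPKM in the library headed K3 HES (2.52 ± 0.55, adjusted p = 0.00455).

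Hox genes of the clusters B, C and D, which mark position along the body axis, were higher in 20 of 23 cases and lower in 1 (Hoxc8, -1.11), with a median of 1.14. The counts were the same with the library headed K3 HES, whereas 18 were higher under median-of-ratios scaling and 11 in a fit of the 4 libraries alone. Levels were low: Hoxd4 was at 5.41 and 4.93 RPKM in K1 and K3, 0.682 RPKM in W1 and 0.494 RPKM in the library headed K3 HES (1.87 ± 0.17, adjusted p = 4.08e-05), and Hoxb9 at 3.08 and 4.95 RPKM, 0.264 RPKM and 0.22 RPKM (1.96 ± 0.23). With a pseudocount of 1 RPKM such differences are understated. Of 21 neural genes, 8 were higher and 0 lower, and 13 were higher with the library headed K3 HES. The shares of all genes higher were 22.3% against W1 and 28.6% with that library. Stmn2, a microtubule regulator of growing neurons, was at 26.9 and 24.1 RPKM in DKO, 4.96 RPKM in W1 and 1.68 RPKM in the library headed K3 HES (2.15 ± 0.13, adjusted p = 3.67e-06). The DKO lines differed here. Pax6, a factor of neural progenitors, was at 9.29 RPKM in K1 and 2.06 RPKM in K3, against 1.15 RPKM in W1 and 0.058 RPKM in the library headed K3 HES, and it passed with that library included (1.90, adjusted p = 0.00654, beside 1.38 ± 0.57, adjusted p = 0.0775, against W1 alone). Without K3 it also passed (2.26, adjusted p = 0.00415). The summed level of the 21 tested neural genes was 375 RPKM in K1 and 171 RPKM in K3, against 75.7 RPKM in W1 and 33.5 RPKM in the library headed K3 HES.

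Endoderm genes lay on the other side. Of 22 visceral endoderm genes for secreted proteins other than Afp, 17 were lower and 0 higher, with a median of -3.19. All 22 were lower with the library headed K3 HES, which was chosen partly by its Afp level, so that count is no independent support. The 22 genes summed to 517 and 327 RPKM in K1 and K3. Their sum was 3865 RPKM in W1 and 6489 RPKM in the library headed K3 HES. Trf (chromosome 9), the iron carrier transferrin, was at 1.3 and 0.618 RPKM in DKO, against 85.2 RPKM in W1 and 111 RPKM in the library headed K3 HES (-5.48 ± 0.72, adjusted p = 0.000284). Fgb, the fibrinogen beta chain, was at 2.39 and 1.34 RPKM in DKO, against 64.6 RPKM in W1 and 102 RPKM in the library headed K3 HES (-4.54 ± 0.56). Hpx, the haem carrier hemopexin, was at 2.05 and 1.56 RPKM, 16.4 RPKM and 31.3 RPKM in the same order of libraries (-2.64 ± 0.29). Trf and Fgb were close to absent from both DKO lines. Of 10 uptake receptor genes, 2 were lower and 1 higher, and 4 and 1 with the library headed K3 HES. With so few members, the shares against W1 stand beside 13% of all genes lower and 22.3% higher. The folate receptor Folr1 fell (-2.14 ± 0.66), and the transferrin receptor Tfrc rose (1.04 ± 0.38, adjusted p = 0.0497), a call that was lost without either DKO line (adjusted p = 0.105 without K1 and 0.0957 without K3), with line as a block (adjusted p = 0.0605) and under median-of-ratios scaling (adjusted p = 0.0783). Folr1 did not pass without K3 (adjusted p = 0.108).

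Endoderm transcription factors were lower in 8 of 14 cases and higher in 0, with a median of -1.77, and 9 were lower with the library headed K3 HES. The liver-type factor Foxa3 was at 1.54 and 0.515 RPKM in K1 and K3, 8.51 RPKM in W1 and 14.4 RPKM in the library headed K3 HES (-2.28 ± 0.32, adjusted p = 0.000396), and the pioneer factor Foxa2 at 8.14 and 4.43 RPKM, 37 RPKM and 34.1 RPKM (-2.43 ± 0.67, adjusted p = 0.0144). Sox17, needed to form endoderm, was at 9.97 and 2.93 RPKM in DKO, against 35.8 RPKM in W1 and 26.9 RPKM in the library headed K3 HES (-2.48 ± 0.83, adjusted p = 0.0355). Without K3 neither Foxa2 (adjusted p = 0.066) nor Sox17 (adjusted p = 0.166) passed. Of 12 genes of basement membrane and parietal endoderm, 9 were lower and 0 higher, with a median of -3.15, and 10 were lower with the library headed K3 HES. Col4a1, a chain of type IV collagen, was at 115 and 41.8 RPKM in DKO, against 2991 RPKM in W1 and 1088 RPKM in the library headed K3 HES (-5.41 ± 1.49, adjusted p = 0.015), and without K3 it did not pass (-4.69, adjusted p = 0.064). Lamb1, a laminin chain, was at 96.3 and 53.6 RPKM in DKO, 932 RPKM in W1 and 586 RPKM in the library headed K3 HES (-3.68 ± 0.62, adjusted p = 0.0012), and the linker Nid1 at 27.2 and 49.1 RPKM, 255 RPKM and 145 RPKM (-2.77 ± 0.44). For each of these genes both DKO levels lay under both other levels. Of all genes, 13% were lower against W1, and 18% with the library headed K3 HES. Of 12 keratin and junction genes 6 were lower, or 7 with the library headed K3 HES, among them Krt18 (-1.75 ± 0.39) and the tight junction gene Ocln (-2.14 ± 0.64), which did not pass without K3 (adjusted p = 0.109).

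Lysosomal genes were lower across their functional classes. Of 68 tested hydrolases, proteases and membrane proteins, 47 were lower and 0 higher, with a median log2 difference of -1.32, while 13% of all genes were called lower. With the library headed K3 HES added, 54 were lower, beside 18% of all genes. In a fit of the 4 libraries alone 45 were lower and 1 higher, beside 1484 lower and 1907 higher of 13129 genes. The summed level of the lysosomal genes was 2066 and 1798 RPKM in K1 and K3, against 6711 RPKM in W1 and 6731 RPKM in the library headed K3 HES. Secreted visceral endoderm genes, basement membrane genes and macrophage markers were lower in the same libraries. Basement membrane genes summed to 888 and 643 RPKM in DKO, 10720 RPKM in W1 and 5701 RPKM in the library headed K3 HES. The 12 macrophage markers listed summed to 6.56 and 8.55 RPKM in DKO, 20.7 RPKM in W1 and 46.9 RPKM in the library headed K3 HES. The part of these cell types in the lysosomal result was not tested.

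Among hydrolases of sugars and lipids, 26 of 34 were lower, or 29 with the library headed K3 HES. Hexa, a subunit of beta-hexosaminidase that degrades gangliosides, was at 31.8 and 33.1 RPKM in K1 and K3, against 202 RPKM in W1 and 203 RPKM in the library headed K3 HES (-2.60 ± 0.35, adjusted p = 0.000308). Naglu, which trims heparan sulphate, was at 4.61 and 4.44 RPKM in DKO, against 28.4 RPKM in W1 and 20.2 RPKM in the library headed K3 HES (-2.41 ± 0.30). Tpp1 stands in this list though it encodes a peptidase, so not all 34 members act on sugars or lipids. It fell by 1.77 ± 0.25. Of 12 proteases, 8 were lower, or 10 with the library headed K3 HES. Ctsd (chromosome 7, 142375916 to 142387870), cathepsin D, was at 173 and 103 RPKM in DKO, 464 RPKM in W1 and 501 RPKM in the library headed K3 HES (-1.79 ± 0.39, adjusted p = 0.00468). Ctsb, cathepsin B, was at 39.9 and 39 RPKM in DKO, 190 RPKM in W1 and 187 RPKM in the library headed K3 HES (-2.24 ± 0.40). Ctsa, the protective protein of several hydrolases, was at 41 and 35 RPKM, 181 RPKM and 166 RPKM in that order (-2.23 ± 0.32). Both DKO levels of each of these genes lay under both other levels.

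Of 22 genes for lysosomal membrane and sorting proteins, 13 were lower, or 15 with the library headed K3 HES. Lamp1 (chromosome 8, 13159135 to 13175338), a major glycoprotein of the membrane, was at 198 and 204 RPKM in K1 and K3, against 745 RPKM in W1 and 585 RPKM in the library headed K3 HES (-1.88 ± 0.30, adjusted p = 0.000841). Mcoln1, the calcium channel TRPML1, was at 20.7 and 16.6 RPKM in DKO, 64.1 RPKM in W1 and 48.7 RPKM in the library headed K3 HES (-1.74 ± 0.30). Ostm1, the partner of a chloride transporter, fell by 1.32 ± 0.19. The V-ATPase acidifies lysosomes by pumping protons. Of its 19 tested subunit genes, 15 were lower and 0 higher with either comparison, and the median against W1 was -0.98. Atp6ap1, an accessory subunit, was at 51 and 45.3 RPKM in DKO, against 167 RPKM in W1 and 148 RPKM in the library headed K3 HES (-1.77 ± 0.24, adjusted p = 0.000357). Atp6v0b, of the membrane sector, was at 67.3 and 41.2 RPKM, 219 RPKM and 195 RPKM in that order (-2.04 ± 0.39).

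**Figure D3:**
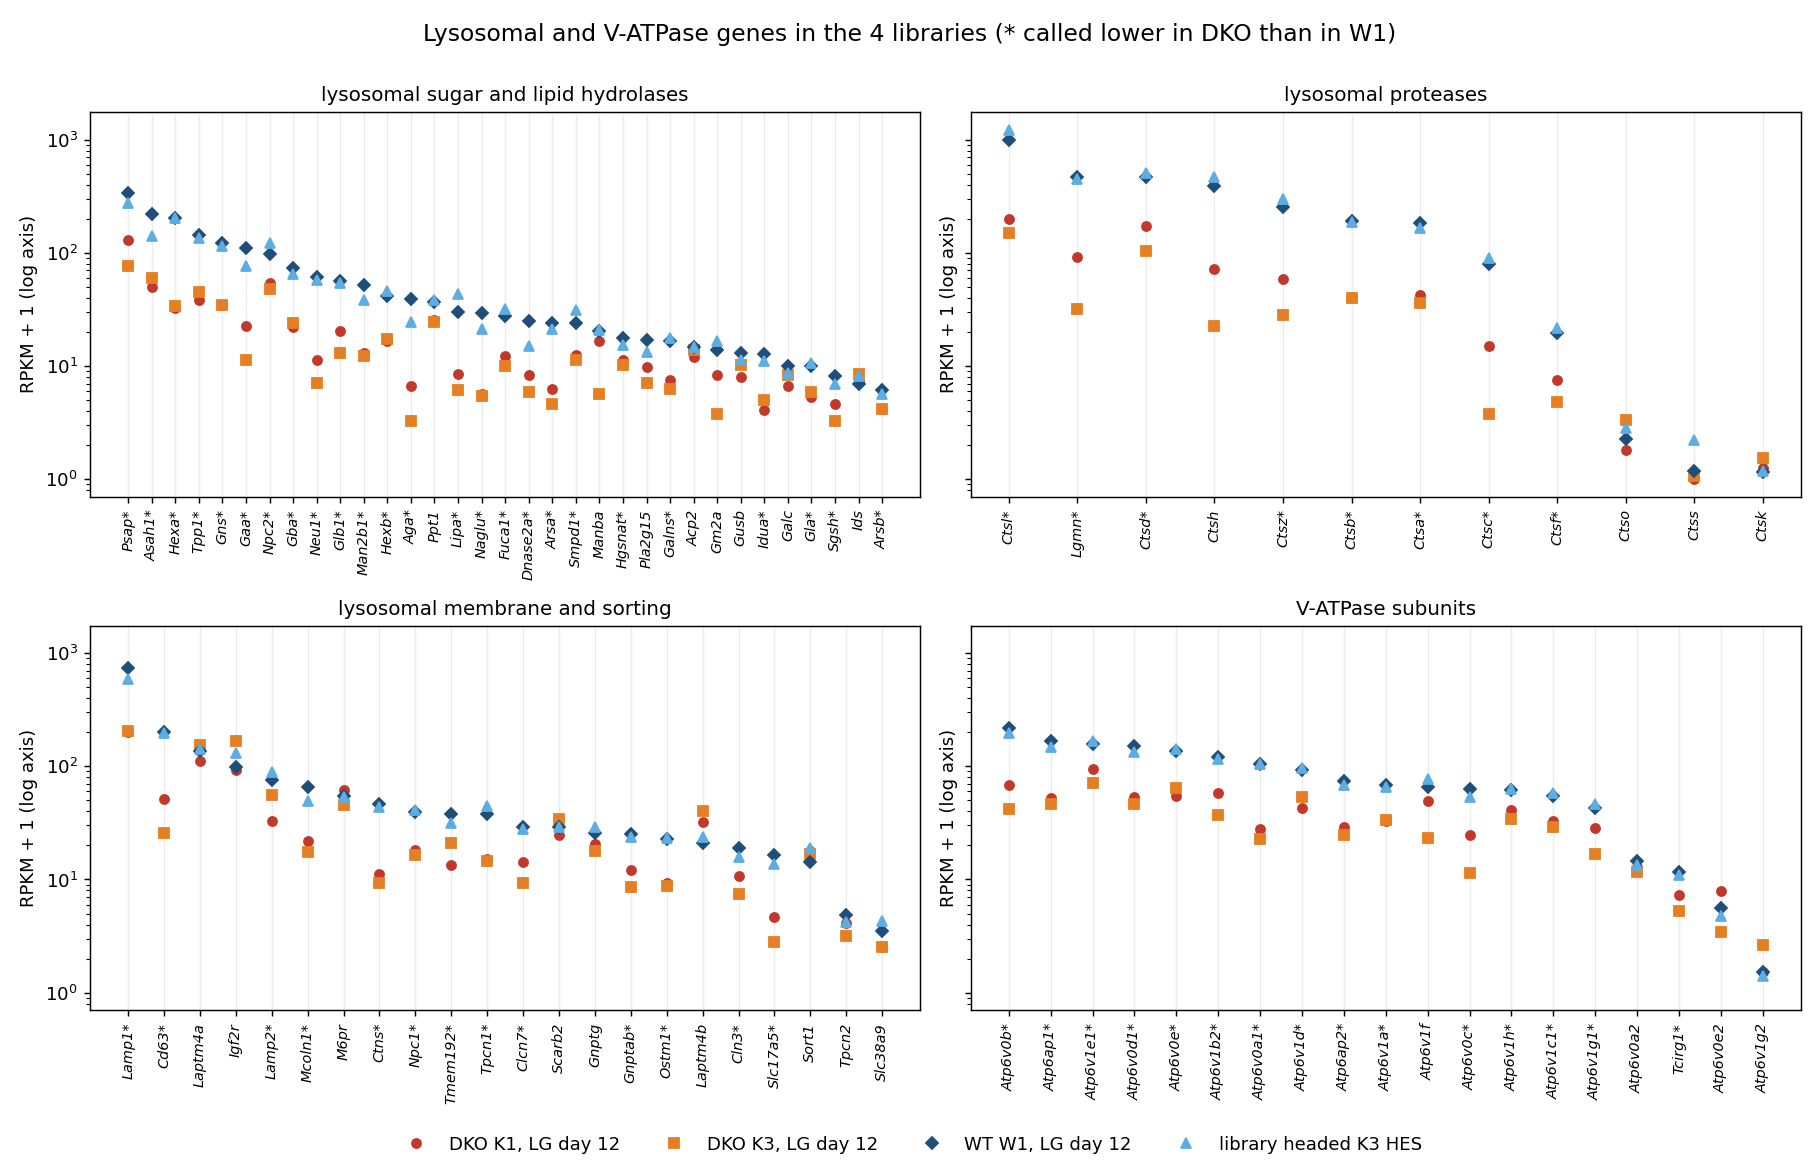
Levels (RPKM + 1, log axis) of the tested members of the 3 lysosomal lists, 1 of them left out, and the V-ATPase list in DKO K1, DKO K3, WT W1 and the library headed K3 HES, ordered by the W1 level. Asterisks mark the genes called lower in DKO than in W1 (15 of 19 in the V-ATPase panel), and the DKO points of these lie under both other points.

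Calls among regulators of these genes went in both directions, and more were lower than higher. Tfeb (chromosome 17, 47785744 to 47792416) was at 5.69 and 2.1 RPKM in K1 and K3, against 11.6 RPKM in W1 and 13.8 RPKM in the library headed K3 HES (-1.46 ± 0.47, adjusted p = 0.0309). The call was lost without K3 (-0.91, adjusted p = 0.161). Tfe3, its close relative, was at 23.8 and 20 RPKM in DKO, 21.4 RPKM in W1 and 23.6 RPKM in the library headed K3 HES, with overlapping groups (0.03 ± 0.16, adjusted p = 0.905). Of 24 MiT/TFE factors and genes of lysosomal mTORC1 control, 7 were lower and 4 higher, beside 13% and 22.3% of all genes. The share higher was thus under that of all genes. Under median-of-ratios scaling 8 of the 24 were lower and 1 higher. In the comparison with the library headed K3 HES, 10 were lower and 4 higher, beside 18% and 28.6% of all genes. Flcn, the folliculin that acts on Rag GTPases, was at 22.5 and 12.5 RPKM in DKO, against 63.4 RPKM in W1 and 53.3 RPKM in the library headed K3 HES (-1.85 ± 0.38, adjusted p = 0.00341), and its partner Fnip2 fell by 1.10 ± 0.27. The Rag GTPase genes parted: Rragc was at 32.3 and 37 RPKM in DKO, 64.3 RPKM in W1 and 68.1 RPKM in the library headed K3 HES (-0.87 ± 0.14), while Rragb was at 11.4 and 12.7 RPKM, 4.29 RPKM and 3.14 RPKM (1.30 ± 0.23). Of 36 autophagy genes 9 were lower and 1 higher, and their median was -0.18. The number lower was 11 with the library headed K3 HES, and in a fit of the 4 libraries alone 4 were. Gabarap, which encodes an LC3-like protein of autophagosomes, was at 127 and 101 RPKM in DKO, against 263 RPKM in W1 and 265 RPKM in the library headed K3 HES (-1.21 ± 0.28).

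MiT/TFE factors bind E-boxes with the letters CACGTG, and TCACGTGA is the core of the element shared by many lysosomal promoters. These letters were searched in RefSeq promoter windows of GRCm38.p6 that reach from 250 bases before to 50 bases after a start, on both strands since each motif reads the same on either, and TCACGTGA contains CACGTG. Windows were found for 69 of the 91 genes of the lysosomal and V-ATPase lists. CACGTG stood in 21 of the 69 (30.4%), beside 8.09% of all 27025 genes with a window, and TCACGTGA in 11 (15.9%), beside 1.12%. Of 47 with a window that were called lower, CACGTG stood in 19, and of 20 that were tested and not called, in 2. The longer TCACGTGA stood in 9 of the 47 (19.1%) and in 2 of the 20 (10%). The sequences below show TCACGTGA (in capitals) before the start of 5 genes called lower, those with the smallest p among genes whose first copy lies before the start.
Ctsa: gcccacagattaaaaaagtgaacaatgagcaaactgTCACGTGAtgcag
Mcoln1: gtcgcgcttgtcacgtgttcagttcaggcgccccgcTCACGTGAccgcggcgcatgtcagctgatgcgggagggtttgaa
Ctsd: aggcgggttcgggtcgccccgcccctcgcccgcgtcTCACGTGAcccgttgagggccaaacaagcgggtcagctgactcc
Atp6v1a: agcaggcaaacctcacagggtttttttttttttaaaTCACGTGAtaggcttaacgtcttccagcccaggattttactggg
Gla: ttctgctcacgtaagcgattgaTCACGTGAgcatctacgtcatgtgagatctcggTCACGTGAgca
They lie at chr2:164833724-164833772 (plus strand), chr8:3500437-3500516 (plus), chr7:142387883-142387962 (minus), chr16:44139348-44139427 (minus) and chrX:134601190-134601255 (minus), in the same order. The motif of Ctsa starts 13 bases before the start site, and that of Ctsd 99 bases. The log2 differences of Atp6v1a, a catalytic V-ATPase subunit, and Gla, alpha-galactosidase A, were -1.04 and -0.82. A match is a description of the letters and not of binding.

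Markers of other cells were uneven. Macrophage markers were lower in 4 of 9 tested cases and higher in 0, and 7 were lower with the library headed K3 HES. Their sums are given beside the lysosomal genes. C1qa and Cx3cr1 were at 0 in both DKO libraries, and the pan-leukocyte marker Ptprc was at 0 and 0.037 RPKM in K1 and K3, 0.108 RPKM in W1 and 0.375 RPKM in the library headed K3 HES. Csf1r, the receptor of macrophage growth factor, was at 0.73 and 0.421 RPKM in DKO, 4.83 RPKM in W1 and 10.7 RPKM in the library headed K3 HES. Fibroblast matrix genes fell in 5 of 14 cases and rose in 2, or 8 and 3 with the library headed K3 HES. The shares of all genes were 13% lower and 22.3% higher against W1. Col1a1, a chain of type I collagen, was at 42.6 and 45.5 RPKM in DKO, against 408 RPKM in W1 and 604 RPKM in the library headed K3 HES (-3.18 ± 0.28, adjusted p = 3.6e-05). Pdgfrb, a receptor of pericytes and fibroblasts, was at 12.7 and 21.3 RPKM in DKO, 4.92 RPKM in W1 and 9.27 RPKM in the library headed K3 HES (1.56 ± 0.31).

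Genes of endothelium and blood split evenly, with 5 higher and 5 lower of 20, and 6 and 7 with the library headed K3 HES. Of all genes, 22.3% were higher and 13% lower, or 28.6% and 18% with that library, so the share higher was near that of all genes. Pecam1, which ESC also express, was at 15.3 and 16 RPKM in K1 and K3, 2.81 RPKM in W1 and 6.45 RPKM in the library headed K3 HES (2.12 ± 0.28), while the endothelial cadherin Cdh5 was at 4.36 and 4.49 RPKM, 20.9 RPKM and 11 RPKM (-2.01 ± 0.50, a call lost with a pseudocount of 0.1 RPKM, adjusted p = 0.097) and the receptor Tek fell by 1.52 ± 0.23. Of 21 genes of cardiac and smooth muscle, 4 were higher and 3 lower, while with the library headed K3 HES 3 were higher and 5 lower. Against W1 these shares were near those of all genes. Myl3, a ventricular myosin light chain, was at 3.6 and 1.61 RPKM in DKO, against 50.7 RPKM in W1 and 43.1 RPKM in the library headed K3 HES (-3.90 ± 0.48, adjusted p = 0.000216). The smooth muscle genes Acta2 (adjusted p = 0.00825) and Cnn1 (1.29 ± 0.24) rose. Acta2 varied widely, at 56.2 and 230 RPKM in DKO, 20.8 RPKM in W1 and 46.1 RPKM in the library headed K3 HES.

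Of 23 cell cycle genes, 12 were higher and 0 lower, with a median of 0.61, and 17 were higher with the library headed K3 HES. Mcm6, of the replicative helicase, was at 104 and 105 RPKM in K1 and K3, 52.5 RPKM in W1 and 55.3 RPKM in the library headed K3 HES (0.98 ± 0.13, adjusted p = 0.00025). Of 21 genes of sterol synthesis and its control, 8 were higher and 1 lower, or 13 and 1 with the library headed K3 HES. Hmgcs1, an early enzyme of the pathway, was at 104 and 115 RPKM in DKO, 42.7 RPKM in W1 and 45 RPKM in the library headed K3 HES (1.34 ± 0.21), and Insig1, which holds back the activator of the pathway, was at 28.3 and 21.1 RPKM, 102 RPKM and 91.2 RPKM (-2.01 ± 0.20, adjusted p = 5.94e-05). Of 18 genes of glycolysis and glucose uptake, 4 were higher, among them Pkm (0.80 ± 0.17) and Pfkp (1.39 ± 0.29), and 2 were lower, or 7 and 4 with the library headed K3 HES. Against W1 these shares were near the 22.3% and 13% of all genes. Stress response genes were lower in 7 of 16 cases and higher in 0, with a median of -0.91, and 11 were lower with the library headed K3 HES. Hspa5, the main chaperone of the endoplasmic reticulum, was at 291 and 301 RPKM in DKO, 615 RPKM in W1 and 623 RPKM in the library headed K3 HES (-1.05 ± 0.16, adjusted p = 0.00056), and Ddit3, a factor of prolonged stress, at 13.4 and 14.3 RPKM, 44.3 RPKM and 62.4 RPKM (-1.61 ± 0.29).

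The largest fall among the genes named by size was that of Gkn2. Gkn2, a gastrokine of stomach epithelium, was at 1.7 and 0 RPKM in K1 and K3, against 275 RPKM in W1 and 88.5 RPKM in the library headed K3 HES (-7.39 ± 0.50, adjusted p = 5.49e-06). Gkn2 and its neighbour Gkn1 lie on chromosome 6, where the 10 tested genes on either side had median log2 differences from W1 of -0.87 in K1, -0.90 in K3 and 0.03 in the library headed K3 HES. The corresponding medians around Nanog lay between -0.04 and 0.07. S100a1, a calcium-binding protein, was at 15 and 3.44 RPKM in DKO, against 379 RPKM in W1 and 323 RPKM in the library headed K3 HES (-5.50 ± 1.09). Wfdc1, a protease inhibitor gene, was at 0.169 and 0.082 RPKM in DKO, 34.7 RPKM in W1 and 17.8 RPKM in the library headed K3 HES (-4.99 ± 0.17). The water channel Aqp8 and the imprinted gene Mest fell with a wide spread between the DKO lines: Aqp8 was at 18.5 and 0.194 RPKM, against 248 RPKM in W1 and 164 RPKM in the library headed K3 HES, and Mest at 16.1 and 0.522 RPKM, against 131 RPKM and 228 RPKM. Without K3 neither Aqp8 (adjusted p = 0.18) nor Mest (adjusted p = 0.103) passed. Among the largest rises were the interferon-inducible Ifitm1, at 81.6 and 146 RPKM in DKO, 9.31 RPKM in W1 and 6.63 RPKM in the library headed K3 HES (3.42 ± 0.45), and Crabp1, a retinoic acid binding protein, at 85.4 and 51.1 RPKM, 5.76 RPKM and 2.98 RPKM (3.31 ± 0.46). Mir1198, an entry for a short RNA, was at 5.64 and 9.86 RPKM in DKO, 0 RPKM in W1 and 8.95 RPKM in the library headed K3 HES, so its call against W1 (adjusted p = 0.00785) was lost with that library (adjusted p = 0.196).

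The low-glucose series places these values in time. Naive pluripotency genes summed to 3037 and 3068 RPKM in K1 and K3 and 3142 RPKM in W1 on day 2, to 1078 and 747 RPKM in DKO and 664 RPKM in W1 on day 8, and to 834 and 618 RPKM in DKO and 366 RPKM in W1 on day 12. Lysosomal genes summed to 1654 and 1442 RPKM in K1 and K3 on day 2, against 2085 RPKM in W1. On day 12 the DKO sums given above were a little over those of day 2, and the W1 sum was more than 3 times its day 2 level. Nanog was at 84 and 105 RPKM in DKO and 67.7 RPKM in W1 on day 2, and at 52.5 and 43.8 RPKM in DKO and 14.4 RPKM in W1 on day 8. Lamp1 was at 216 and 192 RPKM in DKO and 281 RPKM in W1 on day 2, and at 242 and 220 RPKM in DKO and 648 RPKM in W1 on day 8. T peaked on day 8 in all 3 lines, at 58.6 and 66.3 RPKM in K1 and K3 and 24.4 RPKM in W1. The WT line W2 had low-glucose libraries with matching markers on days 2 and 4 only. On day 2 it held Nanog at 76.1 RPKM and Lamp1 at 240 RPKM. On day 4 its Lamb1 was at 44.1 RPKM, against 69 and 41.5 RPKM in K1 and K3 and 111 and 194 RPKM in 2 W1 libraries. Its Hexa was then at 160 RPKM, against 59.1 and 27.8 RPKM in K1 and K3 and 151 and 167 RPKM in W1. Each of these points is 1 library.

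**Figure D4:**
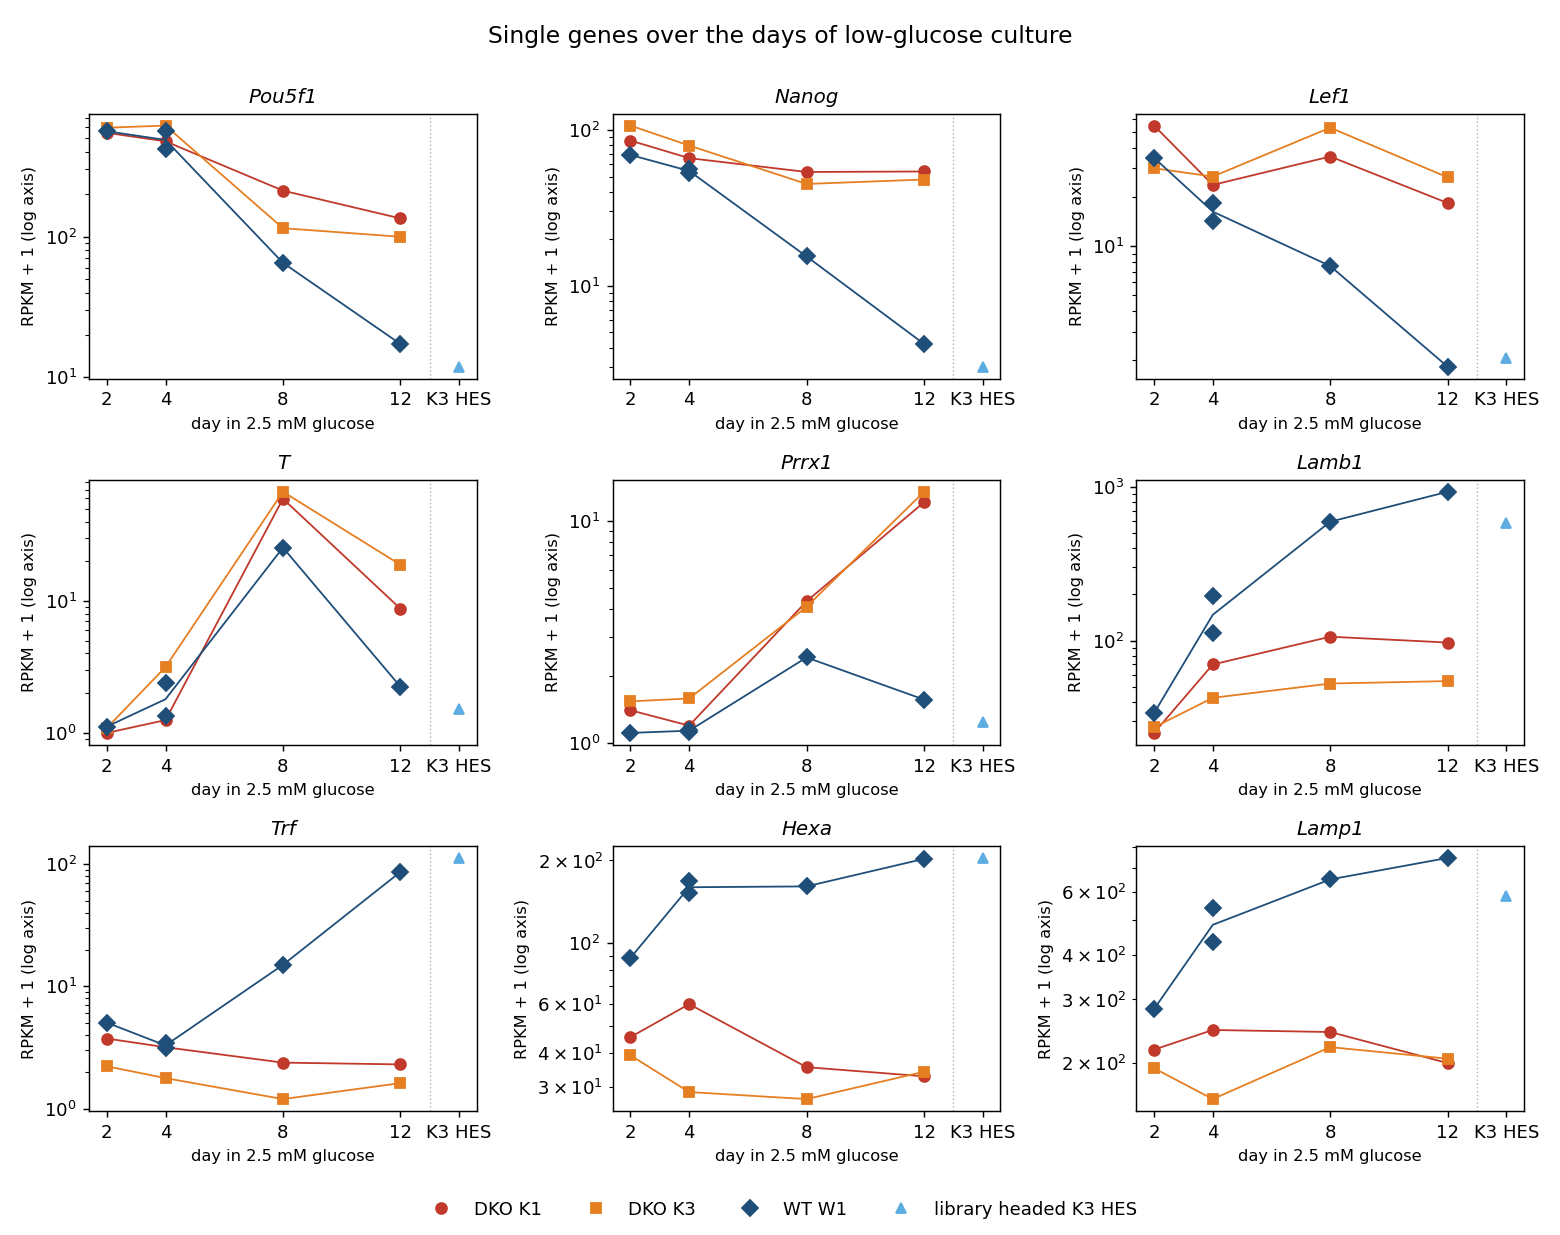
Levels of 9 genes (RPKM + 1, log axis) on days 2, 4, 8 and 12 in 2.5 mM glucose in the DKO lines K1 and K3 and the WT line W1, with the library headed K3 HES apart on the right since its heading gives another day and glucose level. Lines join log-scale means, with 2 W1 libraries on day 4 and 1 library at other points. The W2 libraries of days 2 and 4 are not drawn. Pou5f1, Nanog and Lef1 end higher in DKO on day 12, and Lamb1, Trf, Hexa and Lamp1 end lower.

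**Figure D5:**
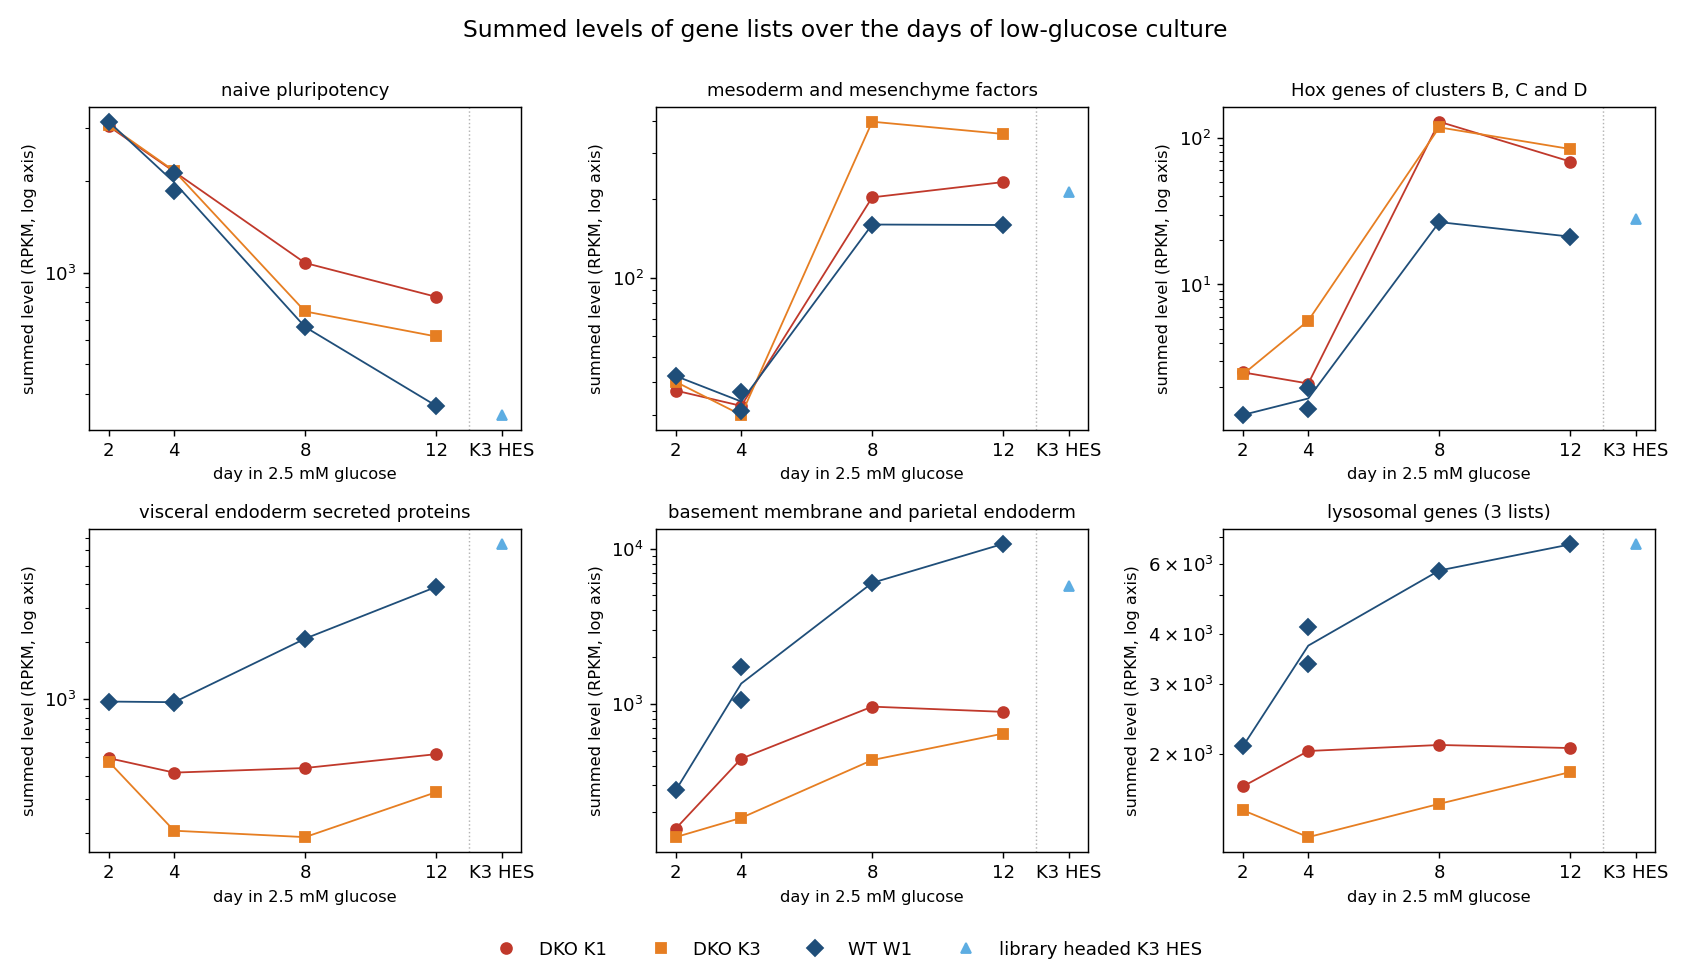
Summed levels (RPKM, log axis) of 6 groups of genes over the days in 2.5 mM glucose in DKO K1, DKO K3 and WT W1, with the library headed K3 HES apart on the right and Afp left out of the visceral endoderm sum. The W2 libraries of days 2 and 4 are not drawn. On day 12 the naive pluripotency, mesoderm and Hox sums of DKO lie above W1, and the visceral endoderm, basement membrane and lysosomal sums lie below it.

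At HG day 12, where K3 is the only DKO line with matching markers, lysosomal genes summed to 2197 RPKM in K3, against 5261 RPKM in W1 and 5074 RPKM in W2. Naive pluripotency genes summed to 512 RPKM in K3, 332 RPKM in W1 and 342 RPKM in W2 there. Secreted visceral endoderm genes other than Afp summed to 1827 RPKM in K3, 6190 RPKM in W1 and 8348 RPKM in W2. These sums differed between K3 and W1 in the same direction at either glucose level, and the effect of glucose on the difference was not tested.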

How the data were processed

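Messenger RNA was sequenced from ESC and embryoid bodies. Per the labels' protocols the libraries were made with the unstranded TruSeq RNA v2 kit, so reads from a gene and an antisense or overlapping partner cannot be told apart, and near-identical genes may share reads. The deposited table, with 24225 genes and 42 libraries, holds RPKM that the authors computed, and its headers give mm10 positions. Tools in the submitters' processing notes, listed without roles, are HOMER, edgeR (3.6.8), FastQC (0.11.2), R (3.1.1) and STAR (2.4.0k), beside the builds mm10 and GRCm38. RPKM are not counts, and a few abundant transcripts can move all other values. Low values were whole multiples of 1 read within 0.1 read in 100% of cases, which gave the depths.

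Columns were assigned by heading, and 6 headings of day 4 stood over 2 columns each, which were averaged on the log scale where both matched. Headings were compared with a line call and with Txnip at 5 RPKM. The line call was W2 for Meg3 under 5 RPKM. Otherwise it was K1 for Ddx3y under 2 RPKM, K3 for Ddx3y of at least 10 RPKM, and W1 between these. The other line markers (Eif2s3y, Kdm5d, Uty, Zfy1, Rian, Mirg) were listed and did not enter the call. The test used limma 3.58.1 (R 4.3.3, mean-variance trend) on log2(RPKM + 1) for genes that reached 1 RPKM in 2 or more values. Means of 14 groups were fitted to 23 values of the 24 matched libraries, which left 9 residual degrees of freedom, and DKO minus W1 at LG day 12 was taken as the contrast. Values of 1 line over days were treated as independent, so p-values may be too small, and they measure only the spread between these samples. Folds of low genes are understated. Prkaa2, Txnip, Afp and the line markers stayed in the fit over all genes, and their test results are not reported. Without them, 14659 genes were tested, of which 3278 were higher and 1903 lower. The procedure was also run on simulated independent values with known shifts. These cannot show the effect of shared lines or of a WT spread unlike that of other groups.

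The members and the 36 gene lists (631 genes, 1 of them not found) were chosen with earlier results of these data known. Genes named are the 12 largest rises and 12 largest falls averaging at least 5 RPKM over K1, K3 and W1 with a proper symbol and both DKO lines on 1 side, up to 4 members of each list with the smallest p, and 14 fixed genes. Members named as the exceptions of a list, and promoters shown, were chosen after their values were seen. A few genes the rule names are not reported here. Alternatives covered the libraries, scaling, pseudocount, filter, line block and each DKO line left out.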

Additional observations from a re-analysis of the deposited data

How the results depend on the processing

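With the library headed K3 HES added to W1, 144 of 147 tested genes named by rule kept direction and call, Mir1198 and Smad6 lost the call and Pax6 gained it. That test shares all other values with the first. Direction and call held for 141 under median-of-ratios scaling, 145 under quantile normalization, 137 with a pseudocount of 0.1 RPKM, 140 with no filter and 133 of 134 with a filter of 5 RPKM, but for 129 without K3, 140 without K1 and 125 of 144 in a fit of the 4 libraries alone. That last fit lost Prkag2, Acta2, Tek, Pkm and Pdgfrb among others, the pseudocount Foxa2, Sox17, Axin2 and Cdh5 among others, and no filter Tfeb among others. Same-numbered samples are 1 line at several days, and with line as a replicate block (correlation 0.195) 5293 genes were called, Tfrc lost its call, and no other named gene did. Leaving out 1 DKO line gave 4210 to 5414 genes called, 2883 to 3202 higher and 1327 to 2212 lower, with 40 to 48 lysosomal and 15 to 18 visceral endoderm genes lower and 15 naive pluripotency genes higher without either line. In these fits the remaining DKO library was assumed to vary like other groups.

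A fit of K1, K3 and W1 alone has 1 residual degree of freedom and called 0 genes, 0 higher and 0 lower by limma, with 0 lysosomal, 0 visceral endoderm and 0 pluripotency genes, while 2858 genes had an unadjusted p under 0.05. A fit of the 4 libraries alone called 3391 genes, of which 1907 were higher, and fewer residual degrees of freedom are part of its construction. Chosen after seeing the data, the library headed K3 HES with median-of-ratios scaling gave 3244 lower genes.

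With all headings taken as labelled, W2 L12 counted as WT and 572 genes were called, 500 higher and 72 lower, with 1 lysosomal gene and 0 visceral endoderm genes lower and 0 pluripotency genes higher. Prkaa2 was at 0.04 RPKM in that library. Under it the log2 difference turned to 0.087 for Foxa2, 0.127 for Krt18, 0.553 for Krt19, 0.749 for Krt8, 0.153 for Rragc, 0.205 for Cdh5, 0.565 for Col1a2, 0.207 for Col1a1 and 0.418 for Col5a2, and to -0.15 for Utf1, -0.375 for Fgf4, -0.021 for Bub1, -0.052 for Pfkp, -0.252 for Gpi1 and -0.208 for Pdk1. The cause of each reversal was not tested further. Differences of genes near 1 RPKM rest on few reads at these depths.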

Other observations

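In the p53, respiratory chain, hypoxia and trophoblast lists, the share called higher was under the 22.3% of all genes. The shares of hypoxia and trophoblast genes called lower were near the 13% of all genes. Of 17 p53 target genes, 2 were higher and 0 lower, and of these Zmat3, an RNA-binding p53 target, was at 24 and 19.5 RPKM in K1 and K3, 12.9 RPKM in W1 and 12 RPKM in the library headed K3 HES (0.71, limma adjusted p = 0.00905). Including the library headed K3 HES, 3 were higher and 1 lower. Of 22 respiratory chain genes 2 were higher, Atp5c1 (0.48) and Sdha (0.32), and both calls were lost without K3 and under median-of-ratios scaling (adjusted p = 0.215 and 0.257), that of Sdha also without K1. Of 12 hypoxia-responsive genes, 2 were lower and 1 higher. P4ha1, a collagen prolyl hydroxylase, was at 40.4 and 58.4 RPKM in DKO, against 204 RPKM in W1 and 176 RPKM in the library headed K3 HES (-2.05), and Ndrg1, a stress-responsive gene, at 22.6 and 21.8 RPKM, 83.5 RPKM and 85.3 RPKM (-1.86). The member that rose was Pdk1, which restrains pyruvate oxidation (1.10). Of 7 trophoblast genes, 1 was higher, Tfap2c (2.18), which early germ cells and ESC also express, and 1 lower, Hsd3b6.

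On chromosome 6, 110 of 682 genes tested were higher (16.1%) and 102 lower (15%), beside 22.6% higher and 12.9% lower of 13988 genes elsewhere. These shares average over stretches that differed. Around Gkn2, the 10 tested genes on either side had median log2 differences from W1 of -0.87 in K1 and -0.9 in K3. Around Erc1, farther along the chromosome, such medians were 0.84 in K1 and 0.06 in K3.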
